A study of Saccharomyces cerevisiae with 21 samples.

Results

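The 35 genes described here encode enzymes and carriers of the tricarboxylic acid (TCA) cycle, the glyoxylate cycle, gluconeogenesis and acetate metabolism in budding yeast. They were taken by gene name from a table of 7122 genes, and all 35 were found. mRNA levels were measured by RNA sequencing in 7 strains with 3 libraries each, all from exponentially growing cells. Each of the 35 genes had at least 1 count in all 21 libraries, and all 35 passed the filter on low counts that kept 6164 genes.

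The strains were as follows. The ino4Δ strain carrying pRS316-GPDprom-Mga2deltaTM-mCh (ino4Δ + Mga2ΔTM) was set against ino4Δ, and both were set against wild-type. The mga2Δ strain carrying the same plasmid (mga2Δ + Mga2ΔTM) and the mga2Δ strain carrying pRS316-GPDprom-Mga2-mCh (mga2Δ + Mga2) were set against mga2Δ and against wild-type. Wild-type cells carrying pRS316-GPDprom-Ole1-mCh (wild-type + Ole1) were set against wild-type (BY4741). The plasmid strains grew in SDC-URA, and wild-type, mga2Δ and ino4Δ grew in SDC+All without a plasmid. There was no group with an empty plasmid, so the overexpressed protein cannot be told apart from the plasmid and the medium in a comparison of a plasmid strain with a strain without one. Ino4 is a subunit of the activator of phospholipid synthesis genes, Mga2 is the membrane-bound activator of the fatty acid desaturase gene OLE1, and Mga2ΔTM lacks the transmembrane helix that holds Mga2 at the membrane. The GPD promoter is strong and constitutive, and ino4Δ + Mga2ΔTM retains its chromosomal MGA2.

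Libraries held 12552418 to 18372240 counts. MGA2 had 7 to 10 counts in mga2Δ, INO4 had 10 to 29 counts in the ino4Δ strains, and URA3, the plasmid marker, had 2704 to 11623 counts in the plasmid strains and at most 1 count elsewhere. The MATa genes STE2, MFA1, MFA2 and BAR1 were expressed in every library, and the MATα pheromone genes had at most 19 counts. STE3, also a MATα gene, had 65 to 230 counts over all libraries, with 214 to 230 in ino4Δ and 77 to 86 in wild-type. The labels number the replicates and do not say whether they were separate cultures, so p-values measure the spread between these libraries. The 35 genes together took 0.761% to 1.13% of the counts of a library, with the highest shares, 1.06% to 1.13%, in mga2Δ + Mga2ΔTM. In bulk RNA, fewer cells expressing a gene and less RNA per cell cannot be told apart.

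Yeast growing on glucose ferments it and keeps much of respiratory metabolism low. Acetate, lactate and other non-fermented carbon enter as acetyl-CoA or pyruvate. The glyoxylate cycle bypasses the decarboxylation steps of the TCA cycle and so yields dicarboxylic acids, from which gluconeogenesis makes hexose phosphate. Many genes of this route are repressed by glucose and are switched on by the activators Cat8, Sip4 and Adr1. A separate control, the retrograde pathway through Rtg1 and Rtg3, acts on the steps from citrate to 2-oxoglutarate, which supply carbon skeletons for glutamate.

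The upstream sequences searched for the sites of these known regulators are shown first, because the members are described below by role. The carbon source-responsive element (CSRE), the site of Cat8 and Sip4, was searched by its consensus on both strands in the 600 bases before the start codon. It was present before 6 of the 35 genes (17.1%) and before 32 of 5999 nuclear protein-coding genes (0.533%). These are FBP1, PCK1, ICL1, MLS1, MDH2 and ACS1, and the stretches below are given 5′ to 3′ on the coding strand, from the R64 genome of RefSeq, with the match to the consensus in capitals.
FBP1 (chrXII:875272-875310, minus strand): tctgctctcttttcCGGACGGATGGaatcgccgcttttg
PCK1 (chrXI:630576-630614, plus strand): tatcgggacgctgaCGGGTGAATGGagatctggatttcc
ICL1 (chrV:287288-287326, minus strand): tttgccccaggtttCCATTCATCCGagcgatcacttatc
MLS1 (chrXIV:405813-405882, plus strand): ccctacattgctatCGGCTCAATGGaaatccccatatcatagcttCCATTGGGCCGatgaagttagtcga
MDH2 (chrXV:83273-83311, minus strand): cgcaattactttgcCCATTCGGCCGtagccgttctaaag
ACS1 (chrI:45423-45461, minus strand): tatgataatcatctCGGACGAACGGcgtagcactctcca
Counted from the start codon, the matches begin between -562 (PCK1) and -377 (MDH2), and MLS1 has 2 of them in opposite orientation, the second of which overlaps a CCAAT on the other strand. None lies in the shorter window of 250 bases before to 50 bases after the gene start, in which the partial form CGGNNNNNNGG, contained in every match of the consensus, was found in 3 of the 35 members (8.57%) and in 10.2% of 6001 genes. In the 600-base window, this partial form was in 21 of the 35 members (60%) and in 24.7% of 5999 genes. The carriers SFC1, CRC1 and JEN1, described below, have no match of the full consensus. The longer window and the full consensus were chosen after the results were seen. Many genes of this route are known to be switched on by Cat8 and Sip4, so the share among the members is not a test.

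The second set holds GTCAC, the core of the Rtg1/Rtg3 site, searched on both strands. It is a common motif, present in 49.2% of the 600-base windows of all genes and in 23 of the 35 members (65.7%), and in the shorter window in 26.4% of all genes and in 11 members (31.4%). Where GTG follows it, GTCAC overlaps the E-box CACGTG. It is shown for genes that make citrate or act on the steps from citrate to 2-oxoglutarate, again with the match in capitals. Those shown were called higher with Mga2ΔTM in at least 1 background, as given below. The citrate synthase gene CIT1, called in no comparison, also has a match, at -368, that is not shown.
CIT2 (chrIII:122622-122687, minus strand): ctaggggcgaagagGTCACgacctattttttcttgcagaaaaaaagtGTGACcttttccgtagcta
ACO1 (chrXII:737980-738012, minus strand): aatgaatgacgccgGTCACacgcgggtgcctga
IDH1 (chrXIV:559339-559371, minus strand): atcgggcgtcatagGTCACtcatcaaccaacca
IDP1 (chrIV:334698-334730, plus strand): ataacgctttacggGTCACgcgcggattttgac
CIT2, known as the prototype of retrograde control, has 3 matches in 600 bases, at -345, -312 and -196, and the first pair is shown. IDH1 also has 3, ACO1 and IDP1 have 1 each, and IDH2 has none in this window. CCAAT, the Hap2/3/4/5 site, was in 82.9% of members and 70.3% of all 600-base windows. AGGGG, the Msn2/Msn4 stress element, was in 71.4% of members and 39.7% of all. CATGTG, the E-box of Ino2/Ino4, was in 7 members (20%) and 16.4% of all: PCK1, PYC1, CIT3, IDP1, ACS1, ALD4 and ALD6. A match is a description of the letters and not evidence of binding.

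Against wild-type, members called higher outnumbered members called lower in each strain, and the same held for all genes tested. A gene was called when its fold change exceeded 1.5 and its adjusted p was below 0.05. In ino4Δ + Mga2ΔTM, 14 of 35 members (40%) were called higher and 1 (2.86%) lower, where 17.9% of all genes tested were called higher and 9.3% lower. In ino4Δ, 14 (40%) were called higher and 5 (14.3%) lower, where 19.2% and 10.1% of all genes were called, so the lower share of the members was near that of all genes. In mga2Δ, 9 (25.7%) were called higher and 1 lower, with 9.52% and 2.38% of all genes called in the same directions. In mga2Δ + Mga2ΔTM, 9 (25.7%) were called higher and 0 lower (all genes, 6.49% and 1.46%). In mga2Δ + Mga2, 5 (14.3%) were called higher and 1 lower (all genes, 3.42% and 0.552%), and in wild-type + Ole1, 6 (17.1%) were called higher and 0 lower (all genes, 6.08% and 0.99%). Beside the counts of 0 from edgeR, 2 members in mga2Δ + Mga2ΔTM and 6 in wild-type + Ole1 were lower at an unadjusted p below 0.05, and DESeq2 and limma-voom also called 0. The total in mga2Δ + Mga2 was 3 without mga2Δ + Mga2 replicate 3 or wild-type replicate 3, and 1 when only the compared groups were fitted, and that in wild-type + Ole1 was 10 without wild-type replicate 2. The median log2 fold change of the 35 members was 0.28 in ino4Δ + Mga2ΔTM, 0.36 in ino4Δ, 0.29 in mga2Δ + Mga2ΔTM, 0.17 in mga2Δ + Mga2, 0.17 in mga2Δ and 0.22 in wild-type + Ole1, while that of all genes lay between -0.01 and 0.03. These 6 comparisons share the wild-type libraries. With libraries scaled by their totals alone, the median of all genes moved to 0.24 in ino4Δ and 0.23 in ino4Δ + Mga2ΔTM, and IDH1 (-0.57) and IDP1 (-0.49) were no longer called lower in ino4Δ.

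**Figure D1:**
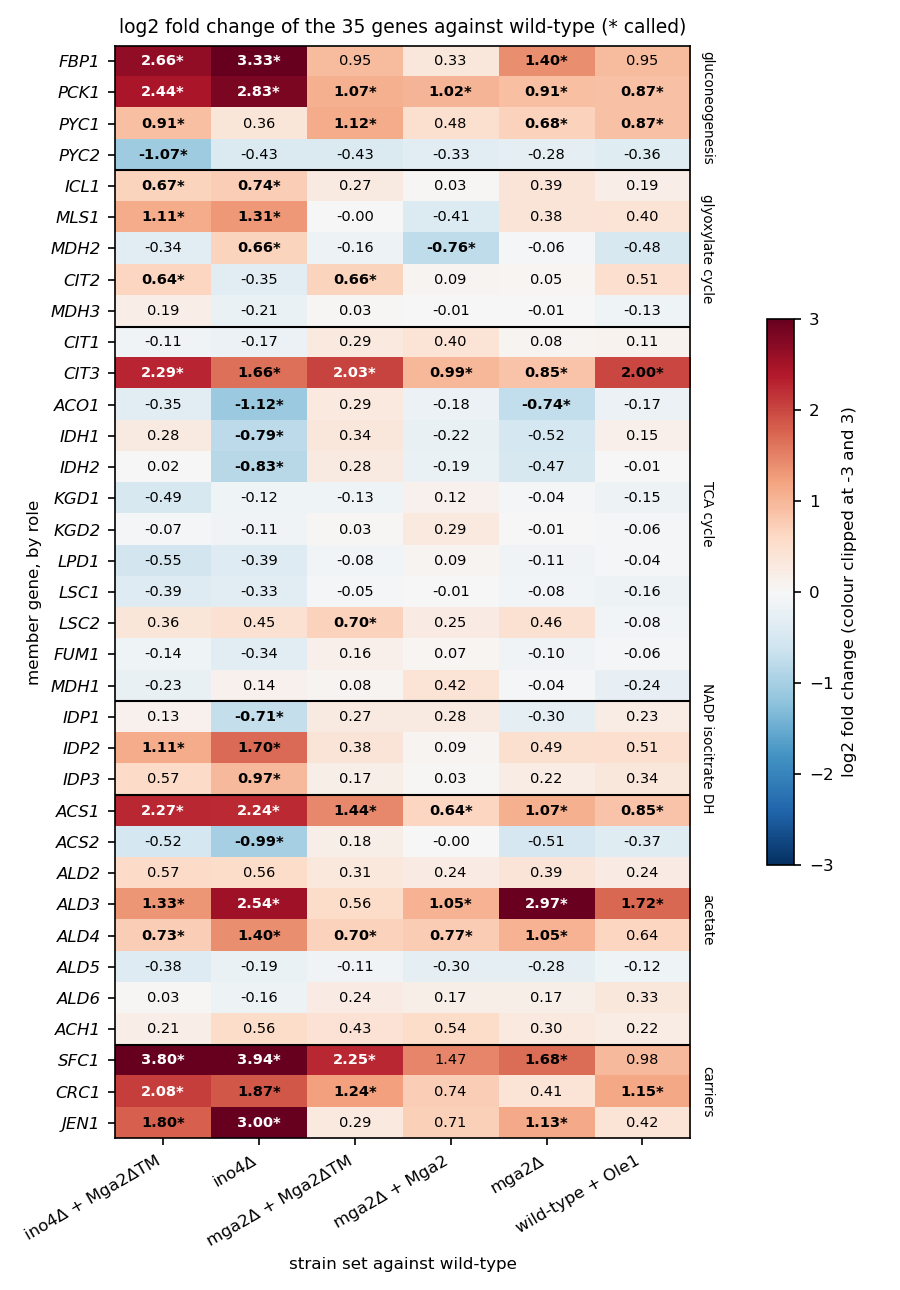
Heat map of the log2 fold change of each of the 35 genes (rows, by role) in each strain against wild-type (columns), with the value printed and an asterisk on called changes. PCK1, CIT3 and ACS1 are called higher in all 6 columns, and the lower calls are PYC2, MDH2, ACO1, IDH1, IDH2, IDP1 and ACS2.

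Values by library are given for the 11 members that met the rule stated with the processing, namely FBP1, PCK1, PYC1, CIT3, IDP2, ACS1, ALD3, ALD4, SFC1, CRC1 and JEN1, and for other members they were chosen after their values were seen. Of the genes in the gluconeogenesis group, PCK1 and FBP1 rose strongly in the ino4Δ strains. PCK1 encodes phosphoenolpyruvate carboxykinase and FBP1 encodes fructose-1,6-bisphosphatase. PCK1 had 20.4, 15 and 19.4 CPM (counts scaled to library size after TMM) in ino4Δ + Mga2ΔTM and 24.7, 27.4 and 19.8 CPM in ino4Δ, against 3.13, 4.39 and 2.58 CPM in wild-type. It had 6.88, 6.68 and 7.56 CPM in mga2Δ + Mga2ΔTM, 7.57, 5.63 and 7.17 in mga2Δ + Mga2, 5.61, 7.33 and 5.95 in mga2Δ and 7.09, 5.51 and 5.77 in wild-type + Ole1. Every library of the 6 other strains was thus above every wild-type library, and the 2 ino4Δ strains were above the rest. Of all genes tested, 62.8% in ino4Δ and 58.3% in ino4Δ + Mga2ΔTM did not overlap wild-type, and 25% to 39.8% in the other strains. The log2 fold change of PCK1 was 2.83 ± 0.19 in ino4Δ (SE, edgeR adjusted p = 9.84e-10), 2.44 ± 0.19 in ino4Δ + Mga2ΔTM, and between 0.87 and 1.07 in the other 4 strains. In mga2Δ + Mga2 the call was lost when only the compared groups were fitted (1.03, adjusted p = 0.0604).

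FBP1 was among the least expressed members, with 5, 3 and 7 counts in the wild-type libraries. It had 2.88, 1.55 and 1.99 CPM in ino4Δ + Mga2ΔTM and 4.04, 3.1 and 3.07 CPM in ino4Δ, against 0.313, 0.212 and 0.463 CPM in wild-type, without overlap. FBP1 rose 10.1-fold in ino4Δ (log2 3.33 ± 0.36, adjusted p = 3.46e-07) and 6.32-fold in ino4Δ + Mga2ΔTM (log2 2.66 ± 0.38, adjusted p = 9.54e-06). In mga2Δ it had 0.801, 0.661 and 1.19 CPM and was called higher (log2 1.40 ± 0.44, adjusted p = 0.0185). That call was lost without mga2Δ replicate 3 (log2 1.11), wild-type replicate 1 (1.34) or wild-type replicate 2 (1.17). FBP1 was at 0.405, 0.999 and 0.565 CPM in mga2Δ + Mga2ΔTM, at 0.357, 0.469 and 0.426 CPM in mga2Δ + Mga2 and at 0.36, 0.907 and 0.713 CPM in wild-type + Ole1, and each of these sets overlapped wild-type.

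The 2 pyruvate carboxylases, which make oxaloacetate from pyruvate, moved apart. PYC1 had 657, 621 and 620 CPM in ino4Δ + Mga2ΔTM and 462, 395 and 440 CPM in ino4Δ, against 332, 360 and 316 CPM in wild-type. It had 784, 727 and 672 CPM in mga2Δ + Mga2ΔTM, 477, 455 and 470 in mga2Δ + Mga2, 517, 541 and 558 in mga2Δ and 627, 627 and 582 in wild-type + Ole1. PYC1 was called higher in ino4Δ + Mga2ΔTM, mga2Δ + Mga2ΔTM, mga2Δ and wild-type + Ole1, by log2 0.91, 1.12, 0.68 and 0.87 with an SE of 0.07 each. PYC2 was lower than wild-type in all 6 strains by its fitted value, -0.28 to -1.07, and was called lower in ino4Δ + Mga2ΔTM, where it had 295, 286 and 289 CPM against 606, 633 and 588 CPM in wild-type (log2 -1.07 ± 0.09). PYC2 was also called lower there than in ino4Δ, at 495, 451 and 411 CPM (-0.64 ± 0.09), a call lost without ino4Δ replicate 1 (-0.57). Of the 50-base windows of PYC1 and PYC2, 8.46% and 8.44% occur elsewhere in the genome, so a small share of reads could not be assigned to either.

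In the glyoxylate cycle, the enzymes that define the bypass rose in the ino4Δ strains, and CIT2 rose in the strains with Mga2ΔTM. ICL1 encodes isocitrate lyase. It had 30.5, 20.3 and 23.5 CPM in ino4Δ + Mga2ΔTM and 27.1, 28.4 and 22.3 CPM in ino4Δ, against 15.1, 15.5 and 15.9 CPM in wild-type, and was called higher in both (log2 0.67 ± 0.12 and 0.74 ± 0.12). Without replicate 1 of ino4Δ + Mga2ΔTM, the first of these was 0.50 and was no longer called. MLS1, malate synthase, had 5.31, 4.47 and 4.65 CPM in ino4Δ + Mga2ΔTM and 6.17, 6.2 and 4.25 CPM in ino4Δ, against 1.81, 3.11 and 1.79 CPM in wild-type (log2 1.11 ± 0.21 and 1.31 ± 0.21). Neither gene was called in the other 4 strains against wild-type.

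MDH2, the cytosolic malate dehydrogenase of this route, had another pattern. It had 121, 129 and 141 CPM in ino4Δ + Mga2ΔTM and 265, 275 and 244 CPM in ino4Δ, against 164, 163 and 167 CPM in wild-type. MDH2 was thus called higher in ino4Δ (log2 0.66 ± 0.08), while ino4Δ + Mga2ΔTM lay below wild-type in every library but under the fold minimum (-0.34 ± 0.08). It was called lower in mga2Δ + Mga2, with 89.9, 94.9 and 108 CPM (log2 -0.76 ± 0.08), and was at 130, 111 and 114 CPM in wild-type + Ole1 (-0.48 ± 0.08, not called). The peroxisomal MDH3 was called in none of the 10 comparisons, and its log2 fold changes against wild-type lay between -0.21 and 0.19. CIT2, the peroxisomal citrate synthase, is described with the early TCA steps below, since it was called higher with them in both Mga2ΔTM comparisons. Against wild-type it was not called in ino4Δ (-0.35) or mga2Δ (0.05).

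**Figure D2:**
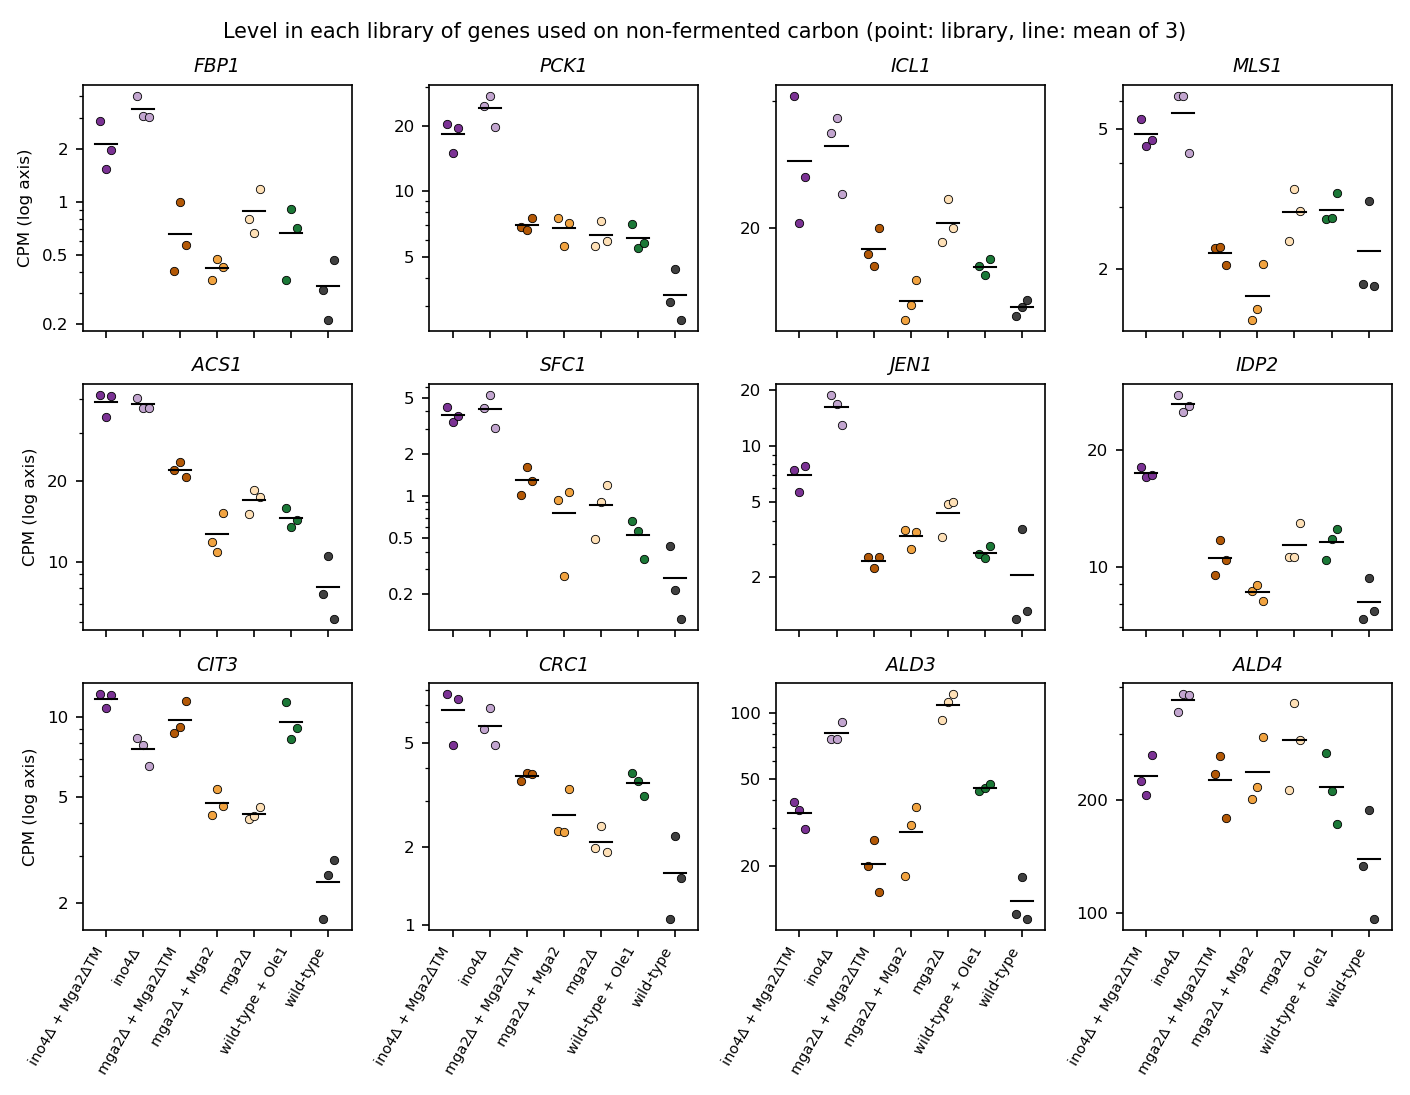
CPM on a log axis (vertical) of 12 genes in each of the 21 libraries, grouped by strain (horizontal), with each library as a point and the mean of 3 as a line. The ino4Δ strains stand highest for FBP1, PCK1, MLS1, ACS1, SFC1, JEN1 and IDP2, CIT3 is also high in mga2Δ + Mga2ΔTM and wild-type + Ole1, and ALD3 is highest in mga2Δ.

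Among the 12 TCA cycle genes, the enzymes acting on citrate and isocitrate fell in ino4Δ, and of the later steps within these 12 only LSC2 was called in any comparison. ACO1 (aconitase) and IDH1 and IDH2 (the 2 subunits of the NAD-dependent isocitrate dehydrogenase) were called lower in ino4Δ, by log2 -1.12 ± 0.09, -0.79 ± 0.11 and -0.83 ± 0.09. ACO1 was also called lower in mga2Δ (-0.74 ± 0.09), where IDH1 and IDH2 were at -0.52 and -0.47 and were not called. KGD1, KGD2 and LPD1 (the 2-oxoglutarate dehydrogenase complex), LSC1 (succinyl-CoA ligase), FUM1 (fumarase), MDH1 and CIT1 (mitochondrial malate dehydrogenase and citrate synthase) were called in none of the 10 comparisons. Their log2 fold changes against wild-type lay between -0.55, LPD1 in ino4Δ + Mga2ΔTM, and 0.42, MDH1 in mga2Δ + Mga2. LSC2, the other subunit of succinyl-CoA ligase, was called higher in mga2Δ + Mga2ΔTM against wild-type (0.70 ± 0.11) and against wild-type + Ole1 (0.78 ± 0.11), with 249, 266 and 206 CPM in mga2Δ + Mga2ΔTM, 146, 140 and 133 CPM in wild-type + Ole1 and 163, 153 and 128 CPM in wild-type. Succinate dehydrogenase, also a later step, is not among the 12 and was counted with the other pathway genes. Of its 4 genes, SDH2 and SDH4 were called higher in ino4Δ, and SDH4 in mga2Δ, against wild-type. SDH1 and SDH2 were called lower in ino4Δ + Mga2ΔTM than in ino4Δ, and SDH3 was not called.

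The same early genes rose with Mga2ΔTM in both deletion backgrounds, in 2 comparisons that share no library. In mga2Δ + Mga2ΔTM against mga2Δ, 7 members (20%) were called higher and 2 (5.71%) lower, where 5.63% and 7.27% of all genes were called. In ino4Δ + Mga2ΔTM against ino4Δ, 6 (17.1%) were called higher and 6 (17.1%) lower, where 4.3% and 5.16% of all genes were called. The higher calls shared by both were CIT2, CIT3, ACO1, IDH1 and IDH2, that is 5 of the 7 and 5 of the 6, and the lower calls shared were ALD3 and JEN1. Both comparisons also differ in plasmid and medium, and the median of all 35 members was 0.12 in the mga2Δ background and -0.07 in the ino4Δ background.

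Aconitase and isocitrate dehydrogenase showed this without overlap between the libraries compared. Such a lack of overlap was common, with 43% of all genes tested in the mga2Δ background and 42.7% in the ino4Δ background. It was found for 15 and 22 of the 35 members. ACO1 had 1500, 1490 and 1340 CPM in ino4Δ + Mga2ΔTM against 782, 820 and 941 CPM in ino4Δ, and 2110, 2170 and 2490 CPM in mga2Δ + Mga2ΔTM against 1140, 1030 and 1150 CPM in mga2Δ. Wild-type had 1860, 1810 and 1860 CPM, so mga2Δ + Mga2ΔTM lay above it and ino4Δ + Mga2ΔTM below it. ACO1 thus rose by log2 0.77 ± 0.09 in the ino4Δ background (adjusted p = 3.11e-06) and 1.03 ± 0.09 in the mga2Δ background (adjusted p = 4.36e-08). IDH1 had 373, 339 and 347 CPM in ino4Δ + Mga2ΔTM against 161, 170 and 174 CPM in ino4Δ (log2 1.07 ± 0.11), and 331, 339 and 429 CPM in mga2Δ + Mga2ΔTM against 199, 198 and 209 CPM in mga2Δ (log2 0.86 ± 0.11). IDH2 had 497, 441 and 414 CPM in ino4Δ + Mga2ΔTM against 234, 245 and 270 CPM in ino4Δ (log2 0.85 ± 0.09), and 502, 513 and 602 CPM in mga2Δ + Mga2ΔTM against 322, 317 and 322 CPM in mga2Δ (log2 0.75 ± 0.09). Both subunits thus rose in both backgrounds, and CIT2 did as well.

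CIT2, which feeds citrate to the same steps from the peroxisome, had 764, 753 and 974 CPM in ino4Δ + Mga2ΔTM against 444, 385 and 428 CPM in ino4Δ (log2 0.99 ± 0.12, adjusted p = 8.26e-06). It had 715, 856 and 964 CPM in mga2Δ + Mga2ΔTM against 486, 603 and 573 CPM in mga2Δ (log2 0.61 ± 0.12, adjusted p = 0.000726), and 460, 587 and 555 CPM in wild-type. Wild-type + Ole1 had 819, 744 and 719 CPM, above every wild-type library, with a log2 fold change of 0.51 ± 0.12 that stayed under the fold minimum. CIT2 was called higher against wild-type in ino4Δ + Mga2ΔTM (0.64) and mga2Δ + Mga2ΔTM (0.66). These calls were lost without wild-type replicate 1 (0.54 in both), and without replicate 3 of the plasmid strain (0.50 in ino4Δ + Mga2ΔTM and 0.54 in mga2Δ + Mga2ΔTM). The call in the mga2Δ background was lost without mga2Δ replicate 1 (0.52) or replicate 3 of mga2Δ + Mga2ΔTM (0.49).

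With full-length Mga2 in place of Mga2ΔTM, none of these genes passed the fold minimum, and of them ACO1 came closest to it. In mga2Δ + Mga2 against mga2Δ, 0 members (0%) were called higher and 3 (8.57%) lower, where 2.86% and 6.02% of all genes were called. Both shares of the members were thus near those of all genes. Beside the 0 from edgeR, 11 members were higher at an unadjusted p below 0.05, DESeq2 called 1 and limma-voom 0, and without mga2Δ replicate 1 the total called was 5. The 3 called lower were ALD3, MDH2 (log2 -0.70 ± 0.08) and MLS1 (-0.79 ± 0.23). The MLS1 call was lost without mga2Δ + Mga2 replicate 1 (-0.68) or replicate 2 (-0.73) or mga2Δ replicate 2 (-0.66). ACO1 was at log2 0.55 ± 0.09 (adjusted p = 0.000114), IDH1 at 0.31 ± 0.11, IDH2 at 0.28 ± 0.09, CIT3 at 0.14 ± 0.17 and CIT2 at 0.04 ± 0.12 in this comparison. IDP1, which is not one of these 5 genes, was at 0.58 ± 0.13. The difference between the effects of the 2 plasmids was not tested. MGA2 itself had 46970 to 61220 counts in mga2Δ + Mga2 and 17037 to 19155 counts in mga2Δ + Mga2ΔTM.

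**Figure D3:**
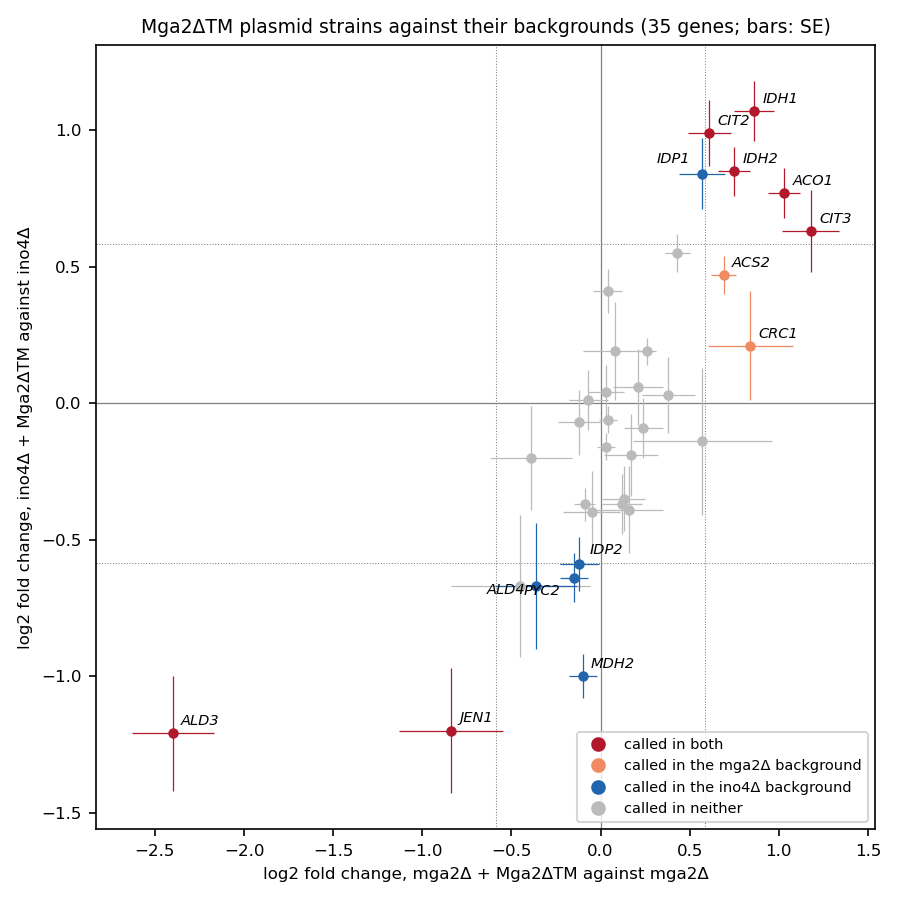
Log2 fold change of each of the 35 genes in mga2Δ + Mga2ΔTM against mga2Δ (horizontal) and in ino4Δ + Mga2ΔTM against ino4Δ (vertical), with bars of 1 SE and dotted lines at a fold of 1.5. CIT2, CIT3, ACO1, IDH1 and IDH2 lie past the lines at the upper right, ALD3 and JEN1 lie past them at the lower left, and MDH2 is at -0.10 on the horizontal and -1.0 on the vertical axis.

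CIT3, the minor mitochondrial citrate and methylcitrate synthase, was called higher in all 6 strains against wild-type. It had 12.2, 10.8 and 12.1 CPM in ino4Δ + Mga2ΔTM, 8.36, 7.86 and 6.57 in ino4Δ, 8.7, 9.22 and 11.5 in mga2Δ + Mga2ΔTM, 4.29, 5.36 and 4.62 in mga2Δ + Mga2, 4.13, 4.26 and 4.58 in mga2Δ and 11.4, 8.3 and 9.12 in wild-type + Ole1, against 1.75, 2.55 and 2.91 CPM in wild-type. The log2 fold changes fell into a lower pair, mga2Δ (0.85 ± 0.19) and mga2Δ + Mga2 (0.99 ± 0.19), and a higher set, ino4Δ (1.66 ± 0.18), wild-type + Ole1 (2.0 ± 0.18), mga2Δ + Mga2ΔTM (2.03 ± 0.18) and ino4Δ + Mga2ΔTM (2.29 ± 0.18). In mga2Δ + Mga2 the call was lost when only the compared groups were fitted (1.0, adjusted p = 0.0598). With Mga2ΔTM it rose by log2 1.18 ± 0.16 over mga2Δ and 0.63 ± 0.15 over ino4Δ, and the second call was lost without ino4Δ replicate 3 (0.55). Between mga2Δ + Mga2ΔTM and wild-type + Ole1, which share the medium, CIT3 differed by 0.03 ± 0.15.

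The NADP-dependent isocitrate dehydrogenases differed by compartment in ino4Δ. IDP1, the mitochondrial enzyme, was called lower there, with 293, 276 and 271 CPM against 459, 444 and 468 CPM in wild-type (log2 -0.71 ± 0.13). IDP2, the cytosolic enzyme, and IDP3, the peroxisomal enzyme, were called higher, by 1.70 ± 0.11 and 0.97 ± 0.15. IDP2 had 18.1, 17.1 and 17.3 CPM in ino4Δ + Mga2ΔTM and 27.8, 25.2 and 26.1 CPM in ino4Δ, against 7.32, 9.34 and 7.67 CPM in wild-type, so the strain with Mga2ΔTM stood between. It was called lower in ino4Δ + Mga2ΔTM than in ino4Δ (-0.59 ± 0.10), close to the fold minimum, and lost that call in 4 of the 6 fits with a library left out (-0.58 to -0.55, without replicates 2 or 3 of ino4Δ + Mga2ΔTM or replicates 1 or 3 of ino4Δ). IDP2 was at 9.51, 11.7 and 10.4 CPM in mga2Δ + Mga2ΔTM, 8.64, 8.98 and 8.17 in mga2Δ + Mga2, 10.6, 10.6 and 13 in mga2Δ and 10.4, 11.8 and 12.5 in wild-type + Ole1, and was not called in these. IDP1 was called higher in ino4Δ + Mga2ΔTM than in ino4Δ (log2 0.84 ± 0.13), with replicate 1 at 353 CPM and the other libraries at 585 and 566 CPM.

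**Figure D4:**
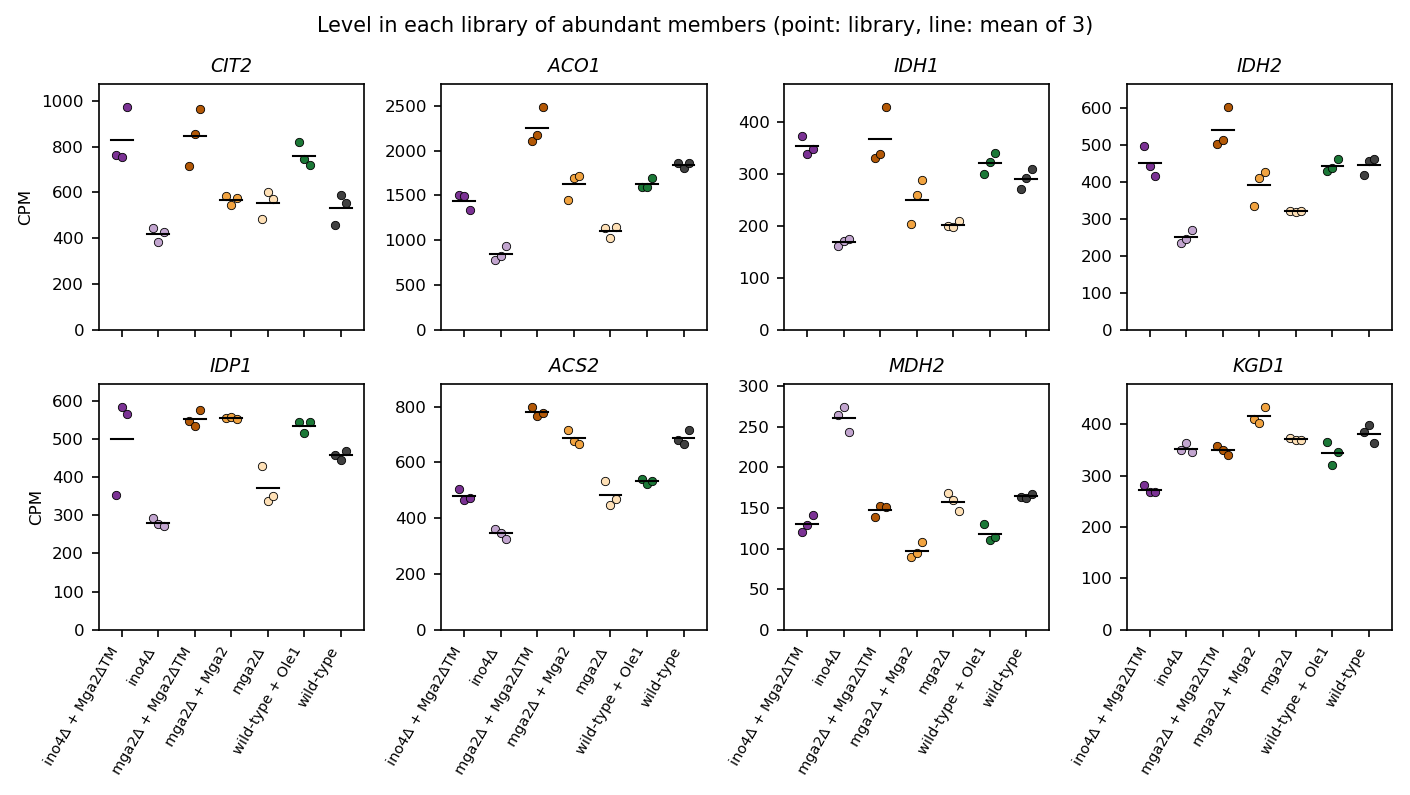
CPM on a linear axis from 0 (vertical) of 8 abundant members in each of the 21 libraries, grouped by strain (horizontal), with each library as a point and the mean of 3 as a line. CIT2, ACO1, IDH1, IDH2 and IDP1 are low in ino4Δ and higher with Mga2ΔTM, MDH2 is highest in ino4Δ, and KGD1 has no call.

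In acetate metabolism the 2 acetyl-CoA synthetases moved in opposite directions in ino4Δ. ACS1, the form used on non-fermented carbon, had 41.4, 34.3 and 41.1 CPM in ino4Δ + Mga2ΔTM and 40.3, 37.2 and 37.2 CPM in ino4Δ, against 7.63, 10.5 and 6.15 CPM in wild-type. It had 21.9, 23.4 and 20.6 CPM in mga2Δ + Mga2ΔTM, 11.9, 10.9 and 15.2 in mga2Δ + Mga2, 15, 18.4 and 17.4 in mga2Δ and 15.8, 13.5 and 14.3 in wild-type + Ole1, all above the wild-type libraries. ACS1 was called higher in all 6, by log2 2.27 ± 0.15 in ino4Δ + Mga2ΔTM, 2.24 ± 0.15 in ino4Δ, 1.44 ± 0.16 in mga2Δ + Mga2ΔTM, 1.07 ± 0.16 in mga2Δ, 0.85 ± 0.16 in wild-type + Ole1 and 0.64 ± 0.16 in mga2Δ + Mga2. The last call was lost without mga2Δ + Mga2 replicate 3 (0.47), wild-type replicate 1 (0.59) or wild-type replicate 3 (0.47). ACS2, the form needed on glucose, was called lower in ino4Δ, with 362, 348 and 327 CPM against 682, 666 and 715 CPM in wild-type (log2 -0.99 ± 0.07, adjusted p = 9.96e-10). It was at 504, 465 and 471 CPM in ino4Δ + Mga2ΔTM (-0.52 ± 0.07, not called). ACS2 was called higher in mga2Δ + Mga2ΔTM than in mga2Δ, with 800, 766 and 776 CPM against 533, 447 and 469 CPM (log2 0.69 ± 0.07).

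ALD3, a cytosolic aldehyde dehydrogenase, had its highest level in mga2Δ and was lower in each strain that carried an Mga2 plasmid than in its background. It had 92.6, 112 and 121 CPM in mga2Δ and 76.1, 75.8 and 90.7 CPM in ino4Δ, against 12.1, 18 and 11.6 CPM in wild-type (log2 2.97 ± 0.23 and 2.54 ± 0.23). It had 20, 26.4 and 15.3 CPM in mga2Δ + Mga2ΔTM and 18.1, 30.8 and 37.2 CPM in mga2Δ + Mga2, which were lower than mga2Δ by log2 -2.40 ± 0.23 and -1.92 ± 0.22. It had 39.2, 36.1 and 29.7 CPM in ino4Δ + Mga2ΔTM, lower than ino4Δ by -1.21 ± 0.21. Against wild-type, ALD3 was called in ino4Δ + Mga2ΔTM (1.33 ± 0.23) and not in mga2Δ + Mga2ΔTM (0.56 ± 0.24). Wild-type + Ole1, with 44, 45.4 and 47.3 CPM, was called higher than wild-type (1.72 ± 0.23), and mga2Δ + Mga2ΔTM was called lower than wild-type + Ole1 (-1.15 ± 0.22, adjusted p = 0.00164). The call of mga2Δ + Mga2 against wild-type (1.05 ± 0.23) was lost without mga2Δ + Mga2 replicate 3 (0.80) or wild-type replicate 3 (0.93).

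ALD3 lies beside its near copy ALD2, and 40.4% of the 50-base windows of each gene occur elsewhere in the genome, so their counts rest on the remaining positions and the split between them is uncertain. ALD2 was called in none of the 10 comparisons and had log2 fold changes of 0.24 to 0.57 against wild-type. It was at -0.07 ± 0.11 in mga2Δ + Mga2ΔTM against mga2Δ, where ALD3 was at -2.40.

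ALD4, the mitochondrial acetaldehyde dehydrogenase, had 225, 206 and 263 CPM in ino4Δ + Mga2ΔTM, 342, 382 and 380 in ino4Δ, 235, 262 and 179 in mga2Δ + Mga2ΔTM, 201, 217 and 294 in mga2Δ + Mga2, 213, 363 and 289 in mga2Δ and 266, 211 and 173 in wild-type + Ole1, against 133, 188 and 96.6 CPM in wild-type. The wild-type libraries spread widely, and the calls in ino4Δ (1.40 ± 0.23) and mga2Δ (1.05 ± 0.23) were those kept with any library left out. The call in ino4Δ + Mga2ΔTM (0.73) was lost without wild-type replicate 3 (0.53), and those in mga2Δ + Mga2 (0.77) and mga2Δ + Mga2ΔTM (0.70) were each lost in 4 of 6 such fits (0.56 to 0.82 and 0.48 to 0.64), namely without wild-type replicates 1 or 3, mga2Δ + Mga2 replicates 2 or 3 and mga2Δ + Mga2ΔTM replicates 1 or 2. The lower call in ino4Δ + Mga2ΔTM than in ino4Δ (-0.67) was lost in 5 of the 6 (-0.71 to -0.59, all but the fit without replicate 3 of ino4Δ + Mga2ΔTM). ALD5 and ALD6, the other mitochondrial and the main cytosolic acetaldehyde dehydrogenase, and ACH1, an acetyl-CoA transferase, were called in no comparison. Their log2 fold changes against wild-type lay between -0.38, ALD5 in ino4Δ + Mga2ΔTM, and 0.56, ACH1 in ino4Δ.

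All 3 carriers rose in both ino4Δ strains. SFC1, the mitochondrial succinate-fumarate carrier, was the least expressed member per length in wild-type and had 7, 3 and 2 counts there. It had 4.29, 3.37 and 3.73 CPM in ino4Δ + Mga2ΔTM and 4.26, 5.24 and 3.07 CPM in ino4Δ, against 0.438, 0.212 and 0.132 CPM in wild-type (log2 3.80 ± 0.42 and 3.94 ± 0.42). It had 1.01, 1.61 and 1.27 CPM in mga2Δ + Mga2ΔTM (2.25 ± 0.50, called), 0.929, 0.268 and 1.07 CPM in mga2Δ + Mga2 (1.47 ± 0.56, not called) and 0.661, 0.558 and 0.356 CPM in wild-type + Ole1 (0.98 ± 0.59, not called). In mga2Δ, with 0.493, 0.901 and 1.19 CPM, it was called (1.68 ± 0.53), and this call was lost without mga2Δ replicate 2 (1.65) or 3 (1.36) or wild-type replicate 3 (1.36).

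JEN1, the lactate and pyruvate permease of the plasma membrane, had 7.42, 5.7 and 7.81 CPM in ino4Δ + Mga2ΔTM and 18.7, 16.8 and 13 CPM in ino4Δ, against 1.19, 3.61 and 1.32 CPM in wild-type (log2 1.80 ± 0.29 and 3.00 ± 0.27). Wild-type replicate 2 was well above the other wild-type libraries for JEN1, and it overlapped the mga2Δ libraries at 3.27, 4.92 and 5 CPM (1.13 ± 0.30, called, and lost when only the compared groups were fitted, adjusted p = 0.104). JEN1 was at 2.56, 2.23 and 2.54 CPM in mga2Δ + Mga2ΔTM, 3.57, 2.82 and 3.48 in mga2Δ + Mga2 and 2.64, 2.51 and 2.92 in wild-type + Ole1. It fell with Mga2ΔTM in the ino4Δ background (-1.20 ± 0.23, adjusted p = 0.000827) and in the mga2Δ background (-0.84 ± 0.29, adjusted p = 0.0323). The second call was lost in 5 of 6 fits with a library left out (-0.89 to -0.75), all but the fit without mga2Δ replicate 1.

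CRC1, the mitochondrial carnitine carrier, had 7.68, 4.92 and 7.4 CPM in ino4Δ + Mga2ΔTM, 5.67, 6.79 and 4.9 in ino4Δ, 3.57, 3.84 and 3.81 in mga2Δ + Mga2ΔTM, 2.29, 2.28 and 3.34 in mga2Δ + Mga2, 1.97, 2.4 and 1.9 in mga2Δ and 3.84, 3.56 and 3.14 in wild-type + Ole1, against 1.06, 2.19 and 1.52 CPM in wild-type. It was called higher in ino4Δ + Mga2ΔTM (2.08 ± 0.23), ino4Δ (1.87 ± 0.23), mga2Δ + Mga2ΔTM (1.24 ± 0.25) and wild-type + Ole1 (1.15 ± 0.25). CRC1 did not overlap between mga2Δ + Mga2ΔTM and mga2Δ and was called higher there (0.84 ± 0.24), but was at 0.21 in the ino4Δ background.

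Isozymes were compared per gene length, as CPM per kilobase. The citrate synthase CIT2 was at 600 ± 90.2 in ino4Δ + Mga2ΔTM and 303 ± 22.1 in ino4Δ, and 386 ± 47.8 in wild-type (SD, n = 3), while CIT1 was at 215 ± 17.7, 207 ± 27.4 and 233 ± 44.9 in the same strains. CIT3 was at 8.02 ± 0.532 in ino4Δ + Mga2ΔTM and was at 1.64 ± 0.406 in wild-type. PYC1 was at 179 ± 5.87 and PYC2 at 81.8 ± 1.33 in ino4Δ + Mga2ΔTM, whereas PYC1 was at 95 ± 6.22 and PYC2 at 172 ± 6.31 in wild-type, so the order of the 2 carboxylases was turned round. PYC1 was also above PYC2 in mga2Δ + Mga2ΔTM (206 ± 15.8 against 128 ± 9.39) and wild-type + Ole1 (173 ± 7.25 against 134 ± 11.5). In mga2Δ they did not differ beyond their spread (152 ± 5.88 and 141 ± 13.3), nor in ino4Δ (122 ± 9.7 and 128 ± 11.9) or mga2Δ + Mga2 (132 ± 3.29 and 136 ± 9.14). ACS2 remained above ACS1 in every strain, with 168 ± 8.52 against 17.8 ± 0.836 in ino4Δ and 335 ± 12.1 against 3.79 ± 1.04 in wild-type. IDP1 was at 218 ± 9.14 in ino4Δ and 355 ± 9.34 in wild-type, and IDP2 at 21.3 ± 1.05 and 6.55 ± 0.871. Of all members in wild-type, ACO1 (788 ± 12.4) and ALD6 (745 ± 99.6) had the highest levels per length and did not differ beyond their spread, and FBP1 (0.315 ± 0.12) and SFC1 (0.269 ± 0.164) had the lowest.

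**Figure D5:**
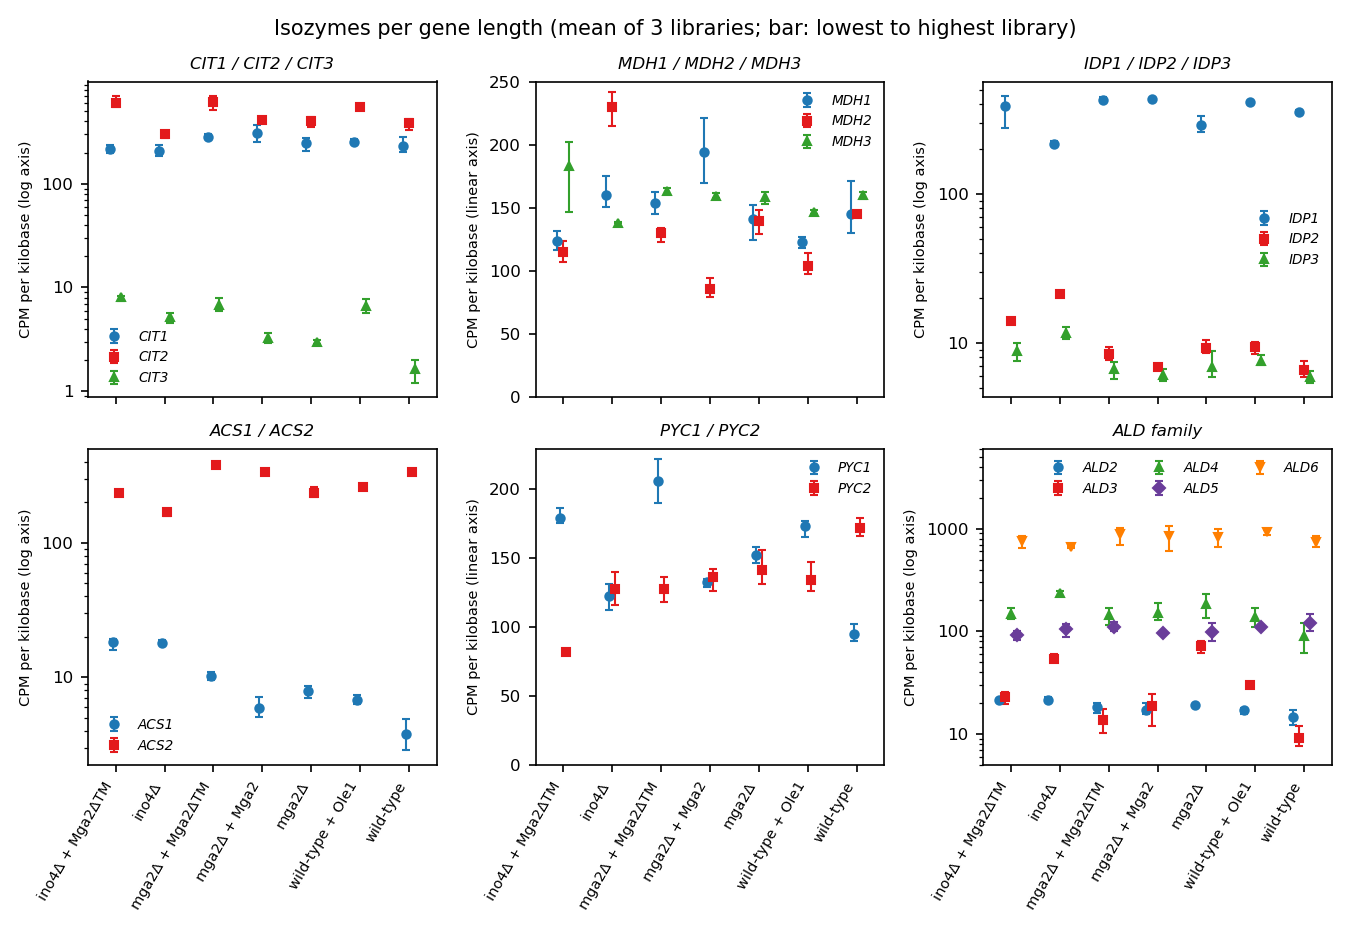
CPM per kilobase of gene (vertical; linear from 0 for the MDH and PYC genes, log axis for the others) of the isozyme families in each strain (horizontal), as the mean of 3 libraries with a bar from the lowest to the highest. The bars of PYC1 stand above those of PYC2 in ino4Δ + Mga2ΔTM, mga2Δ + Mga2ΔTM and wild-type + Ole1 and below them in wild-type, and ACS2 stays above ACS1 in every strain.

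Between mga2Δ + Mga2ΔTM and wild-type + Ole1, which both carry a plasmid and grew without uracil, 3 members were called. Higher were 2 (5.71%), LSC2 and ACS1, and lower was 1 (2.86%), ALD3, where 2.87% and 2.22% of all genes were called, so few genes of any kind were called here. With no fold minimum, 9 members were called. ACS1 was at log2 0.59 ± 0.15, close to the fold minimum, and lost the call without mga2Δ + Mga2ΔTM replicate 2 (0.54) or wild-type + Ole1 replicate 2 (0.54) or 3 (0.57). The median of the 35 members in this comparison was 0.09, and that of all genes was -0.01.

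The change with Mga2ΔTM was also compared between the 2 backgrounds, as the change in mga2Δ minus the change in ino4Δ, in a contrast added after the results were seen. The ino4Δ background keeps its chromosomal MGA2 (3486 to 3619 counts in ino4Δ), so the contrast also carries that difference. MGA2 also had more counts in ino4Δ + Mga2ΔTM (29017 to 35368) than in mga2Δ + Mga2ΔTM (17037 to 19155). The part of this difference in the contrast was not tested. MDH2 was called higher in this contrast (log2 0.90 ± 0.11, adjusted p = 7.4e-05): its log2 fold change with Mga2ΔTM was -0.10 ± 0.08 in the mga2Δ background and -1.0 ± 0.08 in the ino4Δ background. ALD3 was called lower (-1.19 ± 0.31, adjusted p = 0.0258), a call lost in 6 of the 12 fits with a library left out (-1.19 to -1.04), namely without replicates 1 or 2 of ino4Δ, 2 or 3 of mga2Δ, or 1 or 3 of mga2Δ + Mga2ΔTM. Of all genes, 1.9% were called higher and 1.4% lower. For CIT2 (-0.38 ± 0.17), IDH2 (-0.10 ± 0.13) and CIT3 (0.55 ± 0.22), no difference between the backgrounds was called.

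A list of 49 other genes of these pathways was counted with the same rule. Against wild-type, 13 (26.5%) were called higher and 3 (6.12%) lower in ino4Δ + Mga2ΔTM, where 17.9% and 9.3% of all genes were called, so the lower share was below that of all genes. In ino4Δ, 19 (38.8%) were called higher and 9 (18.4%) lower (all genes, 19.2% and 10.1%). In mga2Δ + Mga2ΔTM, 8 (16.3%) were called higher and 2 (4.08%) lower (all genes, 6.49% and 1.46%), and in mga2Δ + Mga2, 3 (6.12%) and 2 (4.08%) (all genes, 3.42% and 0.552%). In mga2Δ, 8 (16.3%) were called higher and 6 (12.2%) lower (all genes, 9.52% and 2.38%), and in wild-type + Ole1, 7 (14.3%) and 2 (4.08%) (all genes, 6.08% and 0.99%). The 3 carnitine acetyltransferases, which hand acetyl groups to the carrier Crc1, were called higher in each strain but mga2Δ. YAT1 stood out, at log2 3.48 in ino4Δ + Mga2ΔTM, 1.57 in ino4Δ, 2.94 in mga2Δ + Mga2ΔTM, 1.14 in mga2Δ + Mga2 and 2.46 in wild-type + Ole1, and 0.51 in mga2Δ. CAT2 and YAT2 were at 2.22 and 1.28 in ino4Δ + Mga2ΔTM. The activator gene CAT8 was called higher in ino4Δ + Mga2ΔTM (1.15), ino4Δ (1.67), mga2Δ + Mga2ΔTM (0.75) and mga2Δ (1.21). SIP4, itself a Cat8 target, was called higher in ino4Δ + Mga2ΔTM (2.63), ino4Δ (1.99), mga2Δ + Mga2ΔTM (1.61) and wild-type + Ole1 (0.78). ADR1 was called higher in ino4Δ + Mga2ΔTM, ino4Δ and mga2Δ, with means of 287, 336 and 234 CPM against 149 CPM in wild-type. It was not called in mga2Δ + Mga2ΔTM, mga2Δ + Mga2 or wild-type + Ole1 against wild-type.

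Of the other genes called in at least 4 of the 6 comparisons with wild-type, ATO2, a relative of the acetate permease gene ADY2, reached 2.75 in ino4Δ, and DAL7, the other malate synthase, reached 0.95 in mga2Δ + Mga2ΔTM. CTP1, the citrate carrier, was called lower in 5 strains, with -0.85 in mga2Δ + Mga2, and was at -0.41 in ino4Δ + Mga2ΔTM. DIC1, the mitochondrial dicarboxylate carrier, was chosen after its values were seen: it was called higher with Mga2ΔTM in the ino4Δ background (1.68) and in the mga2Δ background (1.10), beside ACO1, IDH1 and IDH2. The genes of the retrograde regulators RTG1, RTG2 and RTG3 were not called in any comparison and had log2 fold changes against wild-type of -0.13 to 0.34. These are mRNA levels, and the activity of the Rtg proteins was not measured. HAP4, the regulated subunit of the Hap complex, was not called either, and was at 0.74 ± 0.32 in ino4Δ (adjusted p = 0.0553). The SDH genes, the RTG genes, HAP4 and ADR1 are named for their role, after their values were seen.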

How the data were processed

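The authors aligned 50-base single-end reads of rRNA-depleted, random-primed RNA to the R64-1-1 yeast genome using STAR 2.5.1b, and HTSeq 0.5.4p3 gave the gene counts. The deposited values used are whole-number counts of 7122 genes in 21 libraries. The strand setting of the counting is not given in the sources used here. A normalized table, which holds processed values of the same libraries, was not used. Lines that name no gene (4) were left out.

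Counts were fitted with the robust quasi-likelihood test of edgeR 4.0.16 in R 4.3.3 with TMM scaling, 1 mean per strain over all 21 libraries. Genes were filtered with filterByExpr, which kept 6164. Fold changes are given on the log2 scale with an SE of the fold change divided by the root of F, and p-values were adjusted by Benjamini-Hochberg over all genes tested. A call needs an adjusted p below 0.05 and a fold over 1.5. The members and lists were chosen with earlier results of these data known. Values by library are given for members called in at least 3 of the 6 comparisons with wild-type, or called with a log2 fold change of at least 1.5 in size. Of 49 other genes, those called in at least 4 of the 6 are named, except 1 that is not reported here. The difference between backgrounds, the 600-base window and the CSRE consensus were added after the results were seen. On simulated data for ino4Δ against wild-type, 23 of 50 genes changed 1.5-fold and 48 of 50 changed by a fold of 2 were called, and 2 unchanged genes. A true fold of 1.5 lies at the fold minimum itself. The changed genes were drawn only from genes above a minimum wild-type count, which FBP1 and SFC1 did not reach. Alternatives were RLE and library-total scaling, other filters, DESeq2 1.42.0, limma-voom (limma 3.58.1), a replicate block, only the compared groups, other thresholds and leaving out each library. Libraries of one strain differed by more than sampling noise, so none was counted as a repeat.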

Additional observations from a re-analysis of the deposited data

Results flagged for a closer look

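For 2 genes, the change with Mga2ΔTM differed between the mga2Δ and the ino4Δ background by a test of that difference with edgeR. MDH2 differed by 0.90 ± 0.11 on the log2 scale (adjusted p = 7.4e-05), with a change of -0.10 in the mga2Δ background and -1.0 in the ino4Δ background. ALD3 differed by -1.19 ± 0.31 (adjusted p = 0.0258), with a change of -2.40 in the mga2Δ background and -1.21 in the ino4Δ background. The ALD3 call was lost in 6 of 12 fits with a library left out, at adjusted p 0.0551 to 0.0654. MGA2 counts also differed between the 2 Mga2ΔTM strains, as given above.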

How the results depend on the processing

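Of 94 calls of members, 0 turned round under any alternative, 46 were kept under every one and 70 under every one other than the test against 1.5-fold. That test lost 48 calls, fitting only the compared groups lost 10, and leaving out a library lost 19. The replicate numbers of the labels did not pair the libraries (mean correlation of deviations 0.018 for the same number, -0.35 to 0.45), and with a replicate block all 94 calls were kept, with 19 members called in ino4Δ against wild-type as without it.

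With no fold minimum, the members called against wild-type were 28 in ino4Δ + Mga2ΔTM, 29 in ino4Δ, 17 in mga2Δ + Mga2ΔTM, 10 in mga2Δ + Mga2, 18 in mga2Δ and 12 in wild-type + Ole1. They were 17 for mga2Δ + Mga2 and 20 for ino4Δ + Mga2ΔTM over their backgrounds, 9 for mga2Δ + Mga2ΔTM over wild-type + Ole1 and 4 for the difference between backgrounds. Tested against 1.5-fold, they were 4 in mga2Δ + Mga2ΔTM, 0 in mga2Δ + Mga2, 2 in mga2Δ and 3 in wild-type + Ole1 against wild-type. They were then 1 for mga2Δ + Mga2, 4 for mga2Δ + Mga2ΔTM and 5 for ino4Δ + Mga2ΔTM over their backgrounds, and 0 both for mga2Δ + Mga2ΔTM over wild-type + Ole1 and for the difference between backgrounds. Fitting only the compared groups left 1 in mga2Δ + Mga2 against wild-type, and library totals gave 5 for mga2Δ + Mga2ΔTM over wild-type + Ole1.

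With a library left out, the totals against wild-type ran over 14 to 17 in ino4Δ + Mga2ΔTM, 19 to 21 in ino4Δ, 7 to 11 in mga2Δ + Mga2ΔTM, 3 to 9 in mga2Δ + Mga2, 8 to 11 in mga2Δ and 6 to 10 in wild-type + Ole1. They ran over 2 to 5 for mga2Δ + Mga2, 7 to 9 for mga2Δ + Mga2ΔTM and 9 to 12 for ino4Δ + Mga2ΔTM over their backgrounds, 2 to 3 for mga2Δ + Mga2ΔTM over wild-type + Ole1 and 1 to 2 for the difference between backgrounds.

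Over all genes, library totals gave 1549 higher and 309 lower in ino4Δ + Mga2ΔTM (with TMM, 1105 and 573), 1682 and 258 in ino4Δ (1185 and 620) and 743 and 74 in mga2Δ (587 and 147). With no fold minimum the genes called against wild-type were 3526 in ino4Δ + Mga2ΔTM, 3700 in ino4Δ, 1479 in mga2Δ + Mga2ΔTM, 596 in mga2Δ + Mga2, 2439 in mga2Δ and 1290 in wild-type + Ole1, and tested against 1.5-fold they were 962, 993, 180, 38, 231 and 142 in the same order, where the main counts were 1678, 1805, 490, 245, 734 and 436. For mga2Δ + Mga2, mga2Δ + Mga2ΔTM and ino4Δ + Mga2ΔTM over their backgrounds, mga2Δ + Mga2ΔTM over wild-type + Ole1 and the difference between backgrounds, they were 1823, 2092, 1768, 811 and 391 with no fold minimum and 167, 304, 167, 116 and 22 tested against 1.5-fold, where the main counts were 547, 795, 583, 314 and 203. Without mga2Δ replicate 1, 1192 genes were called in mga2Δ against wild-type, 840 in mga2Δ + Mga2 against mga2Δ and 355 for the difference between backgrounds, which was 362 without ino4Δ + Mga2ΔTM replicate 1. In mga2Δ + Mga2 against wild-type the count was 110 with only the compared groups, 370 without wild-type replicate 2 and 161 without wild-type replicate 3. The cause was not tested. Low counts limit FBP1 and SFC1, with at most 7 counts in a wild-type library.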
